A study of Mus musculus with 15 samples.

Results

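Heat shock proteins and DnaJ chaperones were followed in the mouse heart after doxorubicin. Members were all genes on the array whose symbol is Hspa, Hspb, Hspd, Hspe, Hsph, Dnaja, Dnajb or Dnajc followed by a number, or begins with Hsp90. The rule used names only and no measured value. It found 66 genes with 132 probes, of 19057 genes and 45281 probes in all. Of these, 54 genes with 86 probes lay above background often enough to be tested (12750 genes and 24861 probes in all). By family the 54 were 6 small heat shock proteins, 12 HSP70 and HSP110 genes, 2 HSP90 genes, the pair Hspd1 and Hspe1, and 32 DnaJ genes. The other 12 genes (Dnajb3, Dnajb7, Dnajb8, Dnajb14, Dnajc5b, Dnajc5g, Dnajc6, Dnajc9, Hspa13, Hspa14, Hspb9 and Hspb11) were above background on at most 4 of 15 arrays, with no value over 7.06, and no level is given for them. Hsp90ab1 and Dnajb11 were not analysed here.

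The samples were RNA from the myocardium of male C57Bl/6J mice aged 10 weeks, 1 Illumina BeadChip array per sample and 5 samples per group. PBS hearts had an injection of phosphate-buffered saline. DOX hearts had doxorubicin, an anthracycline that damages the heart. VEGFB_DOX hearts (VEGF-B+DOX in the labels) had doxorubicin 7 days after AAV9-VEGF-B, a viral vector that carries vascular endothelial growth factor B, and all hearts were collected 20 hours after the drug or saline. No group had the vector without the drug or an empty vector, so vector and growth factor cannot be told apart, and their effect without the drug was not measured. By the labels there were 5 mice in a group, and were any animal behind more than one array, the p-values would describe samples and not animals.

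Chaperones hold, fold and sort other proteins. Small heat shock proteins bind unfolding proteins without using ATP. HSP70 proteins bind and release them in a cycle that DnaJ proteins, also called J proteins, start and that nucleotide exchange factors such as HSP110 reset. HSP90 matures kinases and receptors, and HSP60 with its lid HSP10 folds proteins inside mitochondria. Heat and other protein damage raise many of these genes through heat shock factor 1, which binds heat shock elements in their promoters, while the endoplasmic reticulum (ER) chaperones respond through ER stress elements. Muscle carries a high load of small heat shock proteins, which bind sarcomere and cytoskeletal proteins.

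Promoter windows are shown for Hsph1, Hspe1, Hspa5 and Hspa12b, to show which of them carry the letters of either element. Hsph1 and Hspa12b passed the threshold given below in the main fit, and Hspe1 and Hspa5 passed in no comparison of it. The window of Dnajc28, which passed in both VEGFB_DOX comparisons, held 0 matches and is not shown. The windows come from RefSeq on GRCm38.p6 and run from 250 bases before to 50 bases after each start. Of the 66 members, 54 had a window. The heat shock element was searched on both strands as GAANNTTC or TTCNNGAA (2 units), where N is any base, and as the same alternation carried on for 3 units, which contains the shorter form. The ER stress element was searched on both strands as CCAAT and CCACG with 9 free bases between them. All matches of either element are in capitals. Hsph1 (chr5:149636287-149636586, minus strand) holds one isolated 2-unit match and, after its start, a 3-unit match. Hspe1 (chr1:55087898-55088197, plus strand) holds a run of units that it shares with Hspd1, whose window on the other strand overlaps it by 285 bases. Hspa5 (chr2:34771840-34772139, plus strand) holds an ER stress element, and Hspa12b (chr2:131127162-131127461, plus strand) holds none of these letters.
Hsph1: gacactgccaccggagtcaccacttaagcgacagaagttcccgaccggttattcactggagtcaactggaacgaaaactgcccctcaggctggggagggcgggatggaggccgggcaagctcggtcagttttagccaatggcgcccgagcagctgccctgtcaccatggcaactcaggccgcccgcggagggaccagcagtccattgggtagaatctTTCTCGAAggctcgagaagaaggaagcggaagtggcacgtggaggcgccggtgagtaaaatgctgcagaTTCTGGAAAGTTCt
Hspe1: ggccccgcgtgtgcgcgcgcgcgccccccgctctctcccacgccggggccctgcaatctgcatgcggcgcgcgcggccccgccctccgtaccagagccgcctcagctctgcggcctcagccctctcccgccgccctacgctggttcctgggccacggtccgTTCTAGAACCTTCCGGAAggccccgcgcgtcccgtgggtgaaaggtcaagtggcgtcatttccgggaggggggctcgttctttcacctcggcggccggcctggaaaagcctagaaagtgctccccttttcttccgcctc
Hspa5: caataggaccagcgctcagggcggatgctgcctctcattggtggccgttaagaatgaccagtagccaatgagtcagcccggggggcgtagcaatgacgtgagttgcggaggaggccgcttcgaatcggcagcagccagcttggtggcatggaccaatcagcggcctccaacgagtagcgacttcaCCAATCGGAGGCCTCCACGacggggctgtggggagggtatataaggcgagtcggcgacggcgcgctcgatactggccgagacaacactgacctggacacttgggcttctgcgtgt
Hspa12b: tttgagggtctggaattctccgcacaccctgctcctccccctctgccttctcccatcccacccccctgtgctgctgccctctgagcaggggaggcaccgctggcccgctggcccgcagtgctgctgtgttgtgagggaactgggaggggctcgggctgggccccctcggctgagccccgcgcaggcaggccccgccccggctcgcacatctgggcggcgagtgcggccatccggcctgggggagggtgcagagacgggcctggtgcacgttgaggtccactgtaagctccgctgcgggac
A 3-unit heat shock element was found in 4 of the 54 members with a window (Dnajb6, Hspd1, Hspe1 and Hsph1), or 7.41%, against 0.662% of 27025 genes with a window. The 2-unit form was found in 15 of 54, or 27.8%, against 17.0% of all genes. The ER stress element was found in 3 of 54 (Dnajc3, Hsp90b1 and Hspa5), or 5.56%, against 0.137%. These are matches of letters and not measured binding, and Hspd1 and Hspe1 share one stretch of DNA.

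Values are log2 intensities that the authors had quantile-normalized, with background apparently left in, so a difference understates the change of a dim gene. Each gene is read at its brightest tested probe, and levels of different probes are not compared. Differences are between group means ± the standard error (SE) of one limma fit over all 15 arrays, with Benjamini-Hochberg adjusted p-values over all tested probes and a threshold of 0.05. Ventricular cardiomyocyte markers averaged 13.8 to 14.1 on every array, and 0 of 14 passed in any comparison (limma, with 0 of 14 also at an unadjusted p under 0.05). Endothelial markers averaged 9.94 to 10.1 on PBS arrays, 9.98 to 10.1 on DOX arrays and 10.6 to 10.7 on VEGFB_DOX arrays, and all 8 tested markers of dividing cells rose in VEGFB_DOX hearts against both other groups. Some arrays stood apart. The number of calls in DOX against PBS turned on DOX 2: without it, 2.5% of all genes passed in place of 0.416%. PBS 4, PBS 5, DOX 5 and VEGFB_DOX 5 lay apart from the other 11 arrays on the second principal component of all tested probes, and the labels name no batch. In bulk tissue, fewer cells of a type and less RNA per cell cannot be told apart.

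DOX hearts were set against PBS hearts for the effect of the drug on chaperone genes within 20 hours. None of the 54 tested members passed (0 of 54 with limma, and 2 at an unadjusted p under 0.05, Hspb7 and Hspa12a), where 0.416% of all tested genes passed. Member differences ran from -0.39 to 0.33, with a median of -0.01 beside 0.00 for all tested genes, and 28 of 54 lay below 0. The intervals of single genes were wide enough to hold moderate changes, so the count does not show that chaperones were unaltered.

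The stress-inducible cytosolic genes are the ones that heat raises most. Hspa1a, the inducible HSP70, read 7.26, 6.86, 7.40, 7.23 and 7.42 on PBS arrays and 7.33, 7.27, 7.21, 7.66 and 7.75 on DOX arrays. DOX 4 and DOX 5 lay above every PBS array and the other DOX arrays lay among them. The difference was 0.21 ± 0.11 (95% interval -0.03 to 0.45, adjusted p = 0.545), close to background, and the probe cannot be taken as specific, since Hspa1a and Hspa1b are near-identical copies. Hspa1b differed by -0.04 ± 0.05 (adjusted p = 0.857). Hsp90aa1, the inducible cytosolic HSP90, read 7.66, 7.68, 7.89, 7.12 and 7.22 in PBS and 7.66, 8.30, 7.82, 7.95 and 7.51 in DOX hearts, a difference of 0.33 ± 0.17 (interval -0.02 to 0.69, adjusted p = 0.517). Its 2 lowest values were those of PBS 4 and PBS 5. Dnajb1, the main J protein partner of inducible HSP70, differed by -0.02 ± 0.08 (adjusted p = 0.977), Dnaja1 by 0.11 ± 0.05 (adjusted p = 0.486) and Hspa8, the constitutive HSP70, by 0.11 ± 0.09 (interval -0.09 to 0.30, adjusted p = 0.761). Beside these, 2 of 5 neutrophil markers rose and 1 of 11 markers of smooth muscle and pericytes fell in DOX hearts. Hspa12a, a distant HSP70 relative, differed by -0.09 ± 0.04 near background (adjusted p = 0.426).

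Hspb7, a small heat shock protein of heart muscle that binds filamin, had the most negative member difference in DOX hearts. It read 11.81, 12.33, 12.23, 12.16 and 12.27 on PBS arrays and 11.56, 12.53, 11.64, 11.37 and 11.73 on DOX arrays. DOX 2 lay above all PBS arrays, and the other 4 DOX arrays lay below them all. The difference was -0.39 ± 0.17 (adjusted p = 0.418), and without DOX 2 it was -0.59 and passed (limma, adjusted p = 0.0204). Hspb7 was then the single member that passed, 1 of 54 where 2.5% of all genes did. Hspb3, which pairs with Hspb2 in muscle, differed by 0.24 ± 0.12 (adjusted p = 0.515) and Hspb1 by -0.09 ± 0.15 (adjusted p = 0.905).

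**Figure D1:**
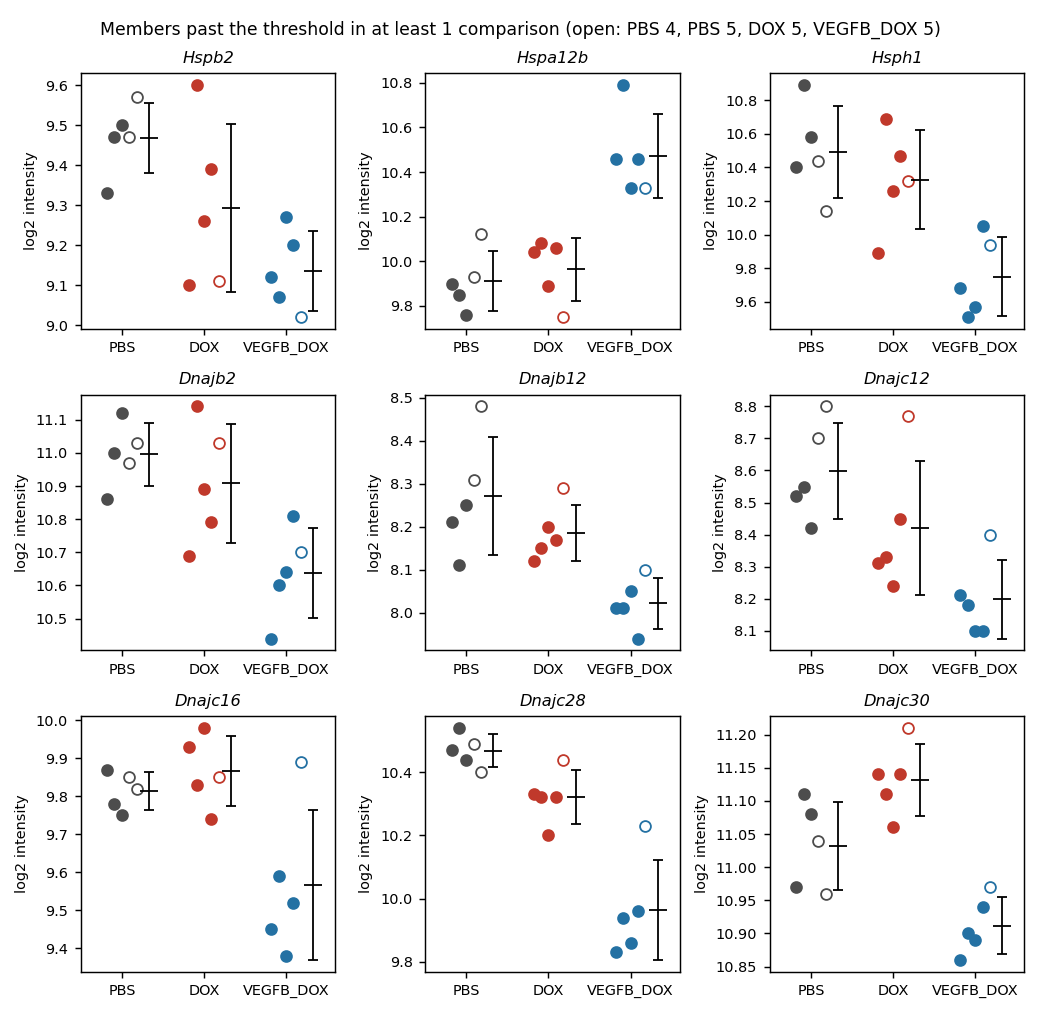
Log2 intensity of the 9 members that passed in at least 1 comparison, 1 point per array, with group mean and SD beside the points. Open points are PBS 4, PBS 5, DOX 5 and VEGFB_DOX 5. Hspa12b is higher on all 5 VEGFB_DOX arrays, and Hsph1 and Dnajc28 are lower there than on every PBS array.

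VEGFB_DOX was compared with DOX, to ask what vector and growth factor added to the drug, and with PBS. Both comparisons use the same VEGFB_DOX arrays. Against DOX, Hspa12b rose and Hsph1, Dnajc28, Dnajc16 and Dnajc30 fell, which is 5 of 54 members or 9.26%, where 12.4% of all tested genes passed (8.43% higher and 3.95% lower). Against PBS, Hspa12b rose and Hsph1, Dnajc28, Dnajc12, Dnajb2, Hspb2 and Dnajb12 fell, which is 7 of 54 or 13.0%, where 14.6% of all genes passed (8.74% higher and 5.87% lower). With rises and falls counted as one, the shares of members were near those of all genes. By direction they were less alike. Rises were 1 of 54 members in each comparison, where 8.43% and 8.74% of all genes rose. Falls were 4 of 54 members against DOX and 6 of 54 against PBS, where 3.95% and 5.87% of all genes fell. The difference between these shares was not tested. The median member difference was -0.12 against DOX and -0.07 against PBS, beside -0.02 and -0.01 for all tested genes. Differences lay below 0 for 35 of 54 members (64.8%, beside 57.1% of all genes) against DOX and for 39 of 54 (72.2%, beside 55.0%) against PBS. The count of 5 fell to 3 without DOX 4 or VEGFB_DOX 1 and to 2 without VEGFB_DOX 2.

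**Figure D2:**
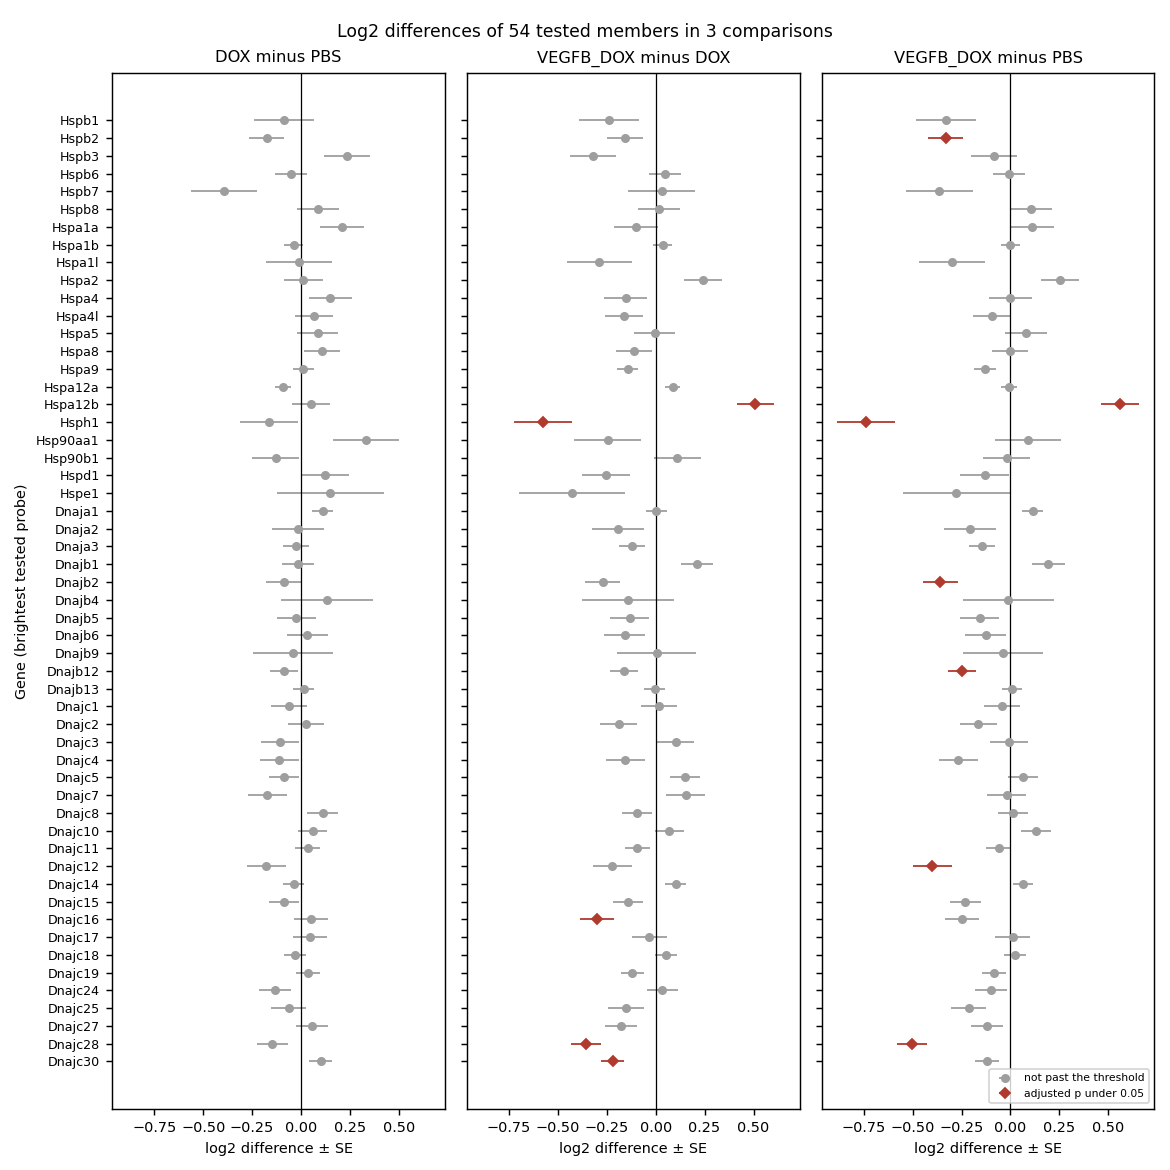
Log2 difference ± SE of the 54 tested members in the 3 comparisons, by family. Diamonds mark adjusted p under 0.05: 0 in DOX minus PBS, 5 in VEGFB_DOX minus DOX and 7 in VEGFB_DOX minus PBS, with Hspa12b at 0.51 and 0.56 and Hsph1 at -0.58 and -0.74.

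In the HSP70 and HSP110 family, 1 of 12 tested members rose and 1 fell in each of these comparisons. Together they are 16.7% of the family, beside 12.4% of all tested genes against DOX and 14.6% against PBS. Hspa12b, a distant HSP70 relative known from endothelial cells, read 9.90, 9.85, 9.76, 9.93 and 10.12 on PBS arrays, 10.04, 10.08, 9.89, 10.06 and 9.75 on DOX arrays, and 10.46, 10.79, 10.33, 10.46 and 10.33 on VEGFB_DOX arrays. Every VEGFB_DOX array lay above every other array. The gene rose by 0.51 ± 0.10 against DOX (1.42-fold, adjusted p = 0.00185) and by 0.56 ± 0.10 against PBS (1.48-fold, adjusted p = 0.000803). DOX and PBS differed by 0.05 ± 0.10 (adjusted p = 0.912). Beside it, 10 of 14 tested endothelial markers rose against DOX and 11 of 14 against PBS, with 0 falling. Cdh5, the endothelial cadherin, rose by 1.20 ± 0.11 and Pecam1 by 0.61 ± 0.11 against DOX, and Fabp4 of this list was not tested. The part of endothelial RNA in the rise of Hspa12b was not tested.

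Hsph1 encodes the inducible HSP110, which resets HSP70 by exchanging its nucleotide, and its window above carries the 3-unit heat shock element. It read 10.40, 10.89, 10.58, 10.44 and 10.14 on PBS arrays, 9.89, 10.69, 10.26, 10.47 and 10.32 on DOX arrays, and 9.68, 9.51, 9.57, 10.05 and 9.94 on VEGFB_DOX arrays. All VEGFB_DOX arrays lay below all PBS arrays, while DOX 1 lay among the VEGFB_DOX values. The gene fell by 0.74 ± 0.15 against PBS, to 0.599 of its level (adjusted p = 0.0028), the most negative member difference in that comparison. Against DOX it fell by 0.58 ± 0.15 (adjusted p = 0.0176). That call ended without DOX 4 (-0.54, adjusted p = 0.053) and without VEGFB_DOX 2 (-0.52, adjusted p = 0.0569). DOX and PBS differed by -0.16 ± 0.15 (adjusted p = 0.775).

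The other HSP70 members did not pass. The HSP110 relatives Hspa4 and Hspa4l differed by -0.15 ± 0.11 (adjusted p = 0.471) and -0.16 ± 0.10 (adjusted p = 0.367) against DOX. Hspa8 stood at -0.11 ± 0.09 against DOX and 0.00 ± 0.09 against PBS (adjusted p = 0.544 and 0.988). Hspa1a stood at -0.10 ± 0.11 against DOX and 0.11 ± 0.11 against PBS (adjusted p = 0.678 and 0.63). Hspa2, an HSP70 best known from the testis, stood at 0.24 ± 0.10 and 0.25 ± 0.10 (adjusted p = 0.145 and 0.11). Hspa8, Hspd1, Hspa9 and Hspb8 each have a further bright probe, and those probes did not pass in any comparison, with the exception of Hspb8.

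Among the DnaJ genes, the J proteins that direct HSP70 to its clients, 3 of 32 fell against DOX and 4 of 32 against PBS, and 0 rose (limma, with 8 and 11 of 32 at an unadjusted p under 0.05 in either direction). These calls are 9.38% and 12.5%, where 12.4% and 14.6% of all tested genes passed, 3.95% and 5.87% of them lower. Dnajc28 had the smallest p. It read 10.47, 10.54, 10.44, 10.49 and 10.40 on PBS arrays, 10.33, 10.32, 10.20, 10.32 and 10.44 on DOX arrays, and 9.83, 9.94, 9.86, 9.96 and 10.23 on VEGFB_DOX arrays. VEGFB_DOX arrays lay below all PBS arrays, and 4 of them lay below all DOX arrays, VEGFB_DOX 5 being the exception. The gene fell by 0.50 ± 0.08 against PBS (adjusted p = 0.00029) and by 0.36 ± 0.08 against DOX (adjusted p = 0.0054), and DOX and PBS differed by -0.15 ± 0.08 (adjusted p = 0.541). A second, dimmer probe fell by 0.28 ± 0.08 against PBS (adjusted p = 0.0284) and stood at -0.13 against DOX (adjusted p = 0.399).

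Dnajc30, a J protein of mitochondria, read 11.14, 11.11, 11.06, 11.14 and 11.21 on DOX arrays and 10.86, 10.90, 10.89, 10.94 and 10.97 on VEGFB_DOX arrays. The groups did not overlap, and PBS arrays, at 10.96 to 11.11, overlapped both. It fell by 0.22 ± 0.06 against DOX (adjusted p = 0.0239) and stood at -0.12 ± 0.06 against PBS (adjusted p = 0.231). Its call ended without any one of DOX 1, DOX 4, DOX 5, VEGFB_DOX 1 or VEGFB_DOX 2, at -0.22 to -0.20 (adjusted p from 0.0514 to 0.0614).

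Dnajc16 read 9.93, 9.83, 9.98, 9.74 and 9.85 on DOX arrays and 9.45, 9.59, 9.38, 9.52 and 9.89 on VEGFB_DOX arrays. VEGFB_DOX 5 lay among the DOX arrays and the other 4 lay below them all. Its signal fell by 0.30 ± 0.09 against DOX (adjusted p = 0.0325) and stood at -0.25 ± 0.09 against PBS (adjusted p = 0.0724), where it passed without VEGFB_DOX 5 (-0.33, adjusted p = 0.00636). The call against DOX ended without any one of DOX 1, DOX 3, DOX 5, VEGFB_DOX 1, VEGFB_DOX 2, VEGFB_DOX 3 or VEGFB_DOX 4, at -0.31 to -0.25 (adjusted p from 0.0504 to 0.0903). Its other tested probes stood at -0.14 and -0.04 against DOX (limma, adjusted p = 0.325 and 0.791). Against PBS they stood at -0.06 and 0.13 (limma, adjusted p = 0.703 and 0.24).

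Dnajc12, a co-chaperone of the aromatic amino acid hydroxylases, read 8.52, 8.55, 8.42, 8.70 and 8.80 on PBS arrays, 8.31, 8.33, 8.24, 8.45 and 8.77 on DOX arrays, and 8.21, 8.18, 8.10, 8.10 and 8.40 on VEGFB_DOX arrays. VEGFB_DOX arrays lay below all PBS arrays, and the DOX mean lay between. The gene fell by 0.40 ± 0.10 against PBS (adjusted p = 0.013) and stood at -0.22 ± 0.10 against DOX (adjusted p = 0.199). A dim second probe stood at -0.07 against PBS (adjusted p = 0.604).

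Dnajb2, which joins HSP70 to ubiquitin-marked proteins and is best known from neurons, read 10.86, 11.00, 11.12, 10.97 and 11.03 on PBS arrays and 10.44, 10.60, 10.64, 10.81 and 10.70 on VEGFB_DOX arrays. The groups did not overlap, and DOX arrays, at 10.69 to 11.14, spanned the whole PBS range. Its signal fell by 0.36 ± 0.09 against PBS (adjusted p = 0.0131) and stood at -0.27 ± 0.09 against DOX (adjusted p = 0.0677). Against DOX it passed without DOX 1 (-0.32, adjusted p = 0.0356) and without VEGFB_DOX 4 (-0.31, adjusted p = 0.0458). Dnajb1 moved the other way without passing in the main fit, at 0.21 ± 0.08 against DOX and 0.19 ± 0.08 against PBS (adjusted p = 0.13 and 0.15). Against DOX it passed in 2 of 26 alternative settings (limma, lowest adjusted p = 0.0269). These were array weights and the fit without PBS 4, PBS 5, DOX 5 and VEGFB_DOX 5.

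Small heat shock proteins gave 1 call among 6 tested members against PBS (16.7%, beside 14.6% of all tested genes). Against DOX they gave 0 (limma, with 1 at an unadjusted p under 0.05). Hspb2, a muscle member, read 9.33, 9.47, 9.50, 9.47 and 9.57 on PBS arrays, 9.10, 9.60, 9.26, 9.39 and 9.11 on DOX arrays, and 9.12, 9.07, 9.27, 9.20 and 9.02 on VEGFB_DOX arrays. VEGFB_DOX arrays lay below all PBS arrays, while DOX arrays overlapped both groups. Expression fell by 0.33 ± 0.09 against PBS (adjusted p = 0.0233) and stood at -0.16 ± 0.09 against DOX (adjusted p = 0.351). The call ended without any one of PBS 5, VEGFB_DOX 1, VEGFB_DOX 2 or VEGFB_DOX 5, at -0.33 to -0.30 (adjusted p from 0.0505 to 0.0615). Hspb7 read 11.60, 11.81, 12.20, 11.79 and 11.58 on VEGFB_DOX arrays, a difference of -0.36 ± 0.17 from PBS (adjusted p = 0.198) and 0.03 ± 0.17 from DOX (adjusted p = 0.952). Hspb1, the most widely expressed small heat shock protein, stood at -0.24 ± 0.15 against DOX and -0.33 ± 0.15 against PBS (adjusted p = 0.403 and 0.2), and Hspb3 at -0.32 ± 0.12 and -0.08 ± 0.12 (adjusted p = 0.108 and 0.749). Hspb3 passed against DOX with array weights (-0.39, adjusted p = 0.0167) and without PBS 4, PBS 5, DOX 5 and VEGFB_DOX 5 (-0.37, adjusted p = 0.0358).

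Probes disagreed for Hspb8, which works with Bag3 to send damaged sarcomere proteins to autophagy. Its brightest probe stood at 0.09 ± 0.11, 0.02 ± 0.11 and 0.11 ± 0.11 for DOX minus PBS, VEGFB_DOX minus DOX and VEGFB_DOX minus PBS (adjusted p = 0.851, 0.955 and 0.63). Its other probe read 11.79, 11.84, 11.83, 11.65 and 11.65 on PBS arrays, 11.85, 12.00, 11.97, 12.05 and 12.06 on DOX arrays, and 11.80, 11.67, 11.45, 11.69 and 11.95 on VEGFB_DOX arrays. By that probe every DOX array lay above every PBS array, at 0.23 higher on average (adjusted p = 0.284), and VEGFB_DOX lay 0.27 ± 0.08 below DOX (adjusted p = 0.0423). Hspb6, a small heat shock protein of muscle, read 14.55 to 14.93 over the 15 arrays and reached the maximum of the table on 4 of them, so a change above that level could not have been read. Its differences ran from -0.05 to 0.05.

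Of the 7 tested members assigned to the ER here, 1 passed against PBS (14.3%, beside 14.6% of all tested genes). Against DOX 0 of 7 passed (limma, with 1 at an unadjusted p under 0.05). Many J proteins, Dnajc16 among them, were assigned no place and are not in this set. Dnajb12, a J protein of the ER membrane that takes part in the disposal of membrane proteins, read 8.21, 8.11, 8.25, 8.31 and 8.48 on PBS arrays, 8.12, 8.15, 8.20, 8.17 and 8.29 on DOX arrays, and 8.01, 8.01, 8.05, 7.94 and 8.10 on VEGFB_DOX arrays. VEGFB_DOX arrays lay below all arrays of both other groups. It fell by 0.25 ± 0.07 against PBS (adjusted p = 0.0282) and stood at -0.16 ± 0.07 against DOX (adjusted p = 0.18). Its call ended without any one of PBS 4, PBS 5, VEGFB_DOX 1, VEGFB_DOX 2 or VEGFB_DOX 4, at -0.25 to -0.20 (adjusted p from 0.0615 to 0.0825). Members that carry the ER stress element did not pass. Hspa5, the ER HSP70, stood at 0.09 ± 0.11 for DOX minus PBS and -0.01 ± 0.11 for VEGFB_DOX minus DOX (adjusted p = 0.851 and 0.986). Hsp90b1, the ER HSP90, stood at -0.13 ± 0.12 and 0.11 ± 0.12 (adjusted p = 0.784 and 0.668), and Dnajc3 at -0.11 ± 0.10 and 0.10 ± 0.10 (adjusted p = 0.772 and 0.604). Dnajb9, an ER J protein, stood at -0.04 ± 0.20 and 0.00 ± 0.20 (adjusted p = 0.975 and 0.994), with intervals from -0.47 to 0.43.

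All 8 members assigned to mitochondria here had differences below 0 in VEGFB_DOX hearts against both groups. Of all tested genes, 57.1% lay below 0 against DOX and 55.0% against PBS. The medians of the 8 were -0.14 against DOX and -0.13 against PBS, and only Dnajc30 of them passed, against DOX. In DOX against PBS their median was 0.04 and 2 of 8 lay below 0. Many J proteins, Dnajc28 among them, were assigned no place, so the set may leave out members that work in mitochondria. Hspa9, the mitochondrial HSP70 that pulls proteins through the inner membrane, read 13.63, 13.71, 13.58, 13.70 and 13.63 on PBS arrays, 13.81, 13.59, 13.61, 13.63 and 13.67 on DOX arrays, and 13.57, 13.54, 13.44, 13.49 and 13.56 on VEGFB_DOX arrays. The VEGFB_DOX arrays lay below all others by a small margin. The differences, -0.14 ± 0.05 against DOX and -0.13 ± 0.05 against PBS, did not pass (adjusted p = 0.116 and 0.14). Dnajc15 and Dnajc19, J proteins of the import motor on the inner membrane, stood at -0.23 ± 0.08 and -0.08 ± 0.06 against PBS (adjusted p = 0.0627 and 0.439), and Dnaja3, the main J protein of the matrix, at -0.15 ± 0.07 (adjusted p = 0.184). Hspd1, the mitochondrial HSP60, stood at -0.25 ± 0.12 against DOX and -0.13 ± 0.12 against PBS (adjusted p = 0.241 and 0.59).

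Partners outside the families were read from lists of chaperone genes. Of 15 mitochondrial chaperones, import partners and proteases, 2 fell against DOX, the proteases Clpp by 0.28 ± 0.06 (adjusted p = 0.00976) and Lonp1 by 0.34 ± 0.08 (adjusted p = 0.0146). Against PBS 2 fell, Clpp by 0.36 ± 0.06 (adjusted p = 0.00122) and Afg3l2 by 0.30 ± 0.08 (adjusted p = 0.0199). The list mean was 9.16 to 9.19 on VEGFB_DOX arrays, below its 9.30 to 9.41 on PBS and 9.30 to 9.43 on DOX arrays. The calls of this list, all of them falls, were 13.3% in each comparison. Of all tested genes, 12.4% and 14.6% passed in either direction, and 3.95% and 5.87% passed as lower. Differences of the list lay below 0 for 15 of 15 genes against DOX and 13 of 15 against PBS. Of all tested genes, 57.1% and 55.0% lay below 0. The cardiomyocyte markers overlapped between groups. Their averages of 13.8 to 14.1 lie under the table maximum of 14.93, which limits how large a rise could be read. Markers of other cells moved in VEGFB_DOX hearts as well. Beside the endothelial and dividing-cell markers, 6 of 11 mural-cell markers (smooth muscle and pericyte) and 2 of 9 fibroblast markers rose against DOX and 0 fell. Against PBS, 3 of 11 mural-cell markers rose and 2 fell, 2 of 9 fibroblast markers rose and 1 fell, 3 of 10 macrophage markers and 2 of 5 neutrophil markers rose, and 3 of 5 erythroid markers fell. The part of these cells in the falls of members and partners was not tested. Calls in the remaining lists were 0 to 2 per list and comparison. Of 25 cytosolic co-chaperones, Ahsa1, which stimulates the ATPase of HSP90, fell by 0.36 ± 0.10 against DOX (adjusted p = 0.0201). Against PBS the HSP90 immunophilin Fkbp4 fell by 0.48 ± 0.11 (adjusted p = 0.00647) and Bag5, an exchange factor of HSP70, rose by 0.24 ± 0.07 (adjusted p = 0.03). Of 25 genes of ER folding and the unfolded protein response, P4hb, a protein disulfide isomerase, rose by 0.22 ± 0.07 and the stress sensor Atf6 fell by 0.19 ± 0.06 against DOX (adjusted p = 0.0479 and 0.0482), and 0 of 25 passed against PBS (limma, with 2 at an unadjusted p under 0.05). A list of 6 held muscle small heat shock and sarcomere chaperones and partners outside the naming rule, with the small heat shock protein Cryab among them. Of these, only filamin C (Flnc) passed. It fell by 0.46 ± 0.15 against PBS (limma, adjusted p = 0.0467). The 14 genes of the cytosolic chaperonin and prefoldin gave 0 calls in any comparison (limma). The 3 tested genes of the heat shock factor list, Hsf2, Hsf4 and the factor-binding Hsbp1, also gave 0. At most 1 gene per list and comparison had an unadjusted p under 0.05 (limma). Hsf1, the gene of heat shock factor 1, was not analysed here. In DOX against PBS these 6 lists gave 0 calls (limma, at most 6 per list at an unadjusted p under 0.05).

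**Figure D3:**
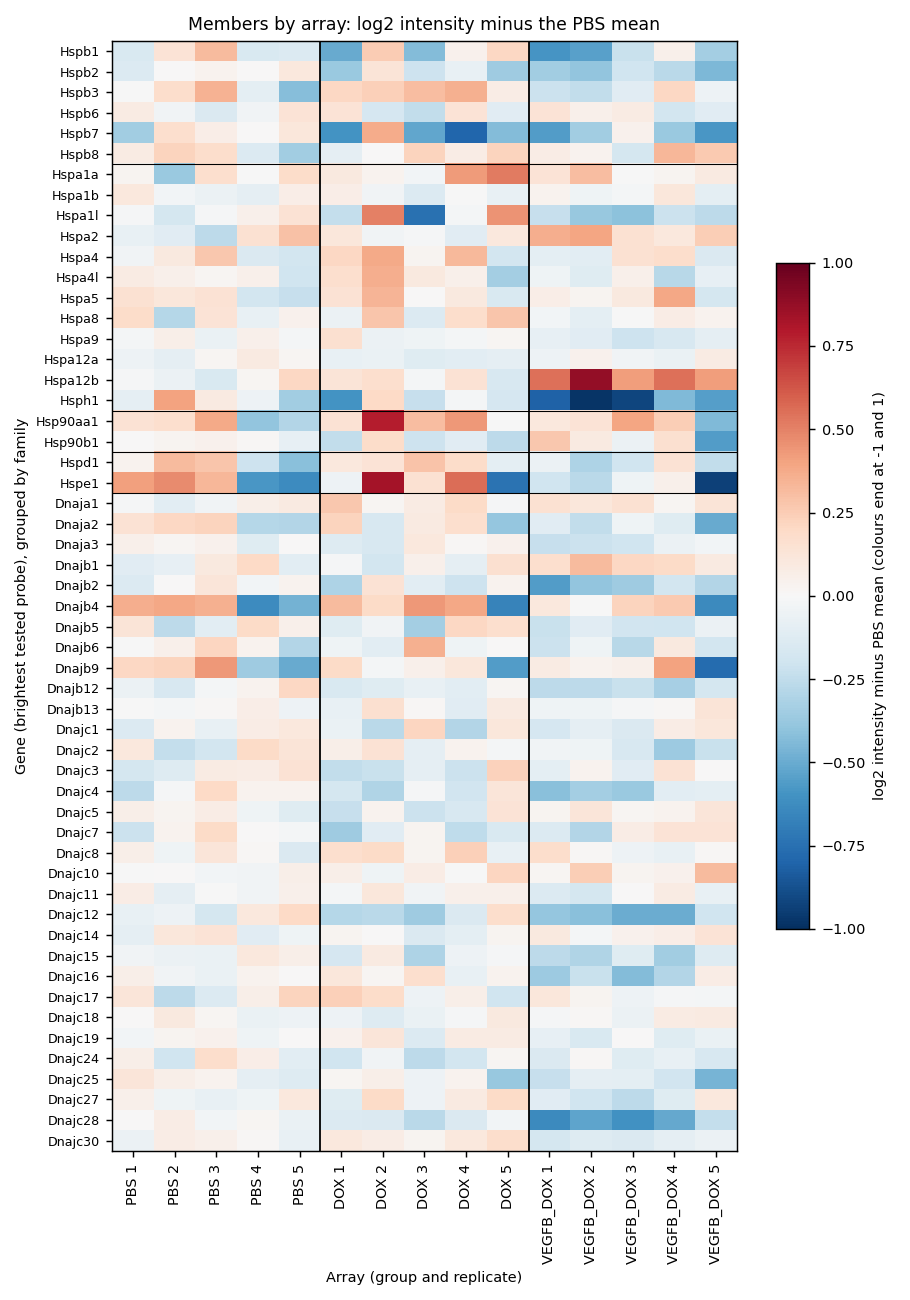
Log2 intensity of each tested member on each array minus its PBS mean, with families separated by lines and colours ending at -1 and 1. Hspa12b stands out above and Hsph1 and Dnajc28 below on VEGFB_DOX arrays, and Hspe1, Dnajb4 and Dnajb9 are low on PBS 4, PBS 5, DOX 5 and VEGFB_DOX 5.

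The widest spread among members lay within groups, on the same 4 arrays that stood apart over all genes. Hspe1, the mitochondrial HSP10, read 10.11, 10.17, 10.03, 9.12 and 9.07 on PBS arrays, 9.65, 10.53, 9.85, 10.26 and 8.96 on DOX arrays, and 9.50, 9.43, 9.66, 9.75 and 8.77 on VEGFB_DOX arrays. PBS 4, PBS 5, DOX 5 and VEGFB_DOX 5 gave 8.77 to 9.12 and the other 11 arrays 9.43 to 10.53, a difference of -0.92 between their means. Dnajb4, a cytosolic J protein, read 7.43 to 7.62 on the 4 arrays and 8.09 to 8.53 on the rest. Dnajb9 read 9.27 to 9.68 and 10.02 to 10.47, Hsp90aa1 7.07 to 7.51 and 7.62 to 8.30. Dnaja2, a cytosolic J protein, Hspa5 and Hspa4 were also lower on all 4 arrays than on any other, which makes 7 of 54 members, while 3.69% of all tested genes were lower there without overlap and 0.949% higher. The 4 arrays were set apart by the values of all genes, members included, so this is a description with no test, and each group holds at least 1 of them.

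**Figure D4:**
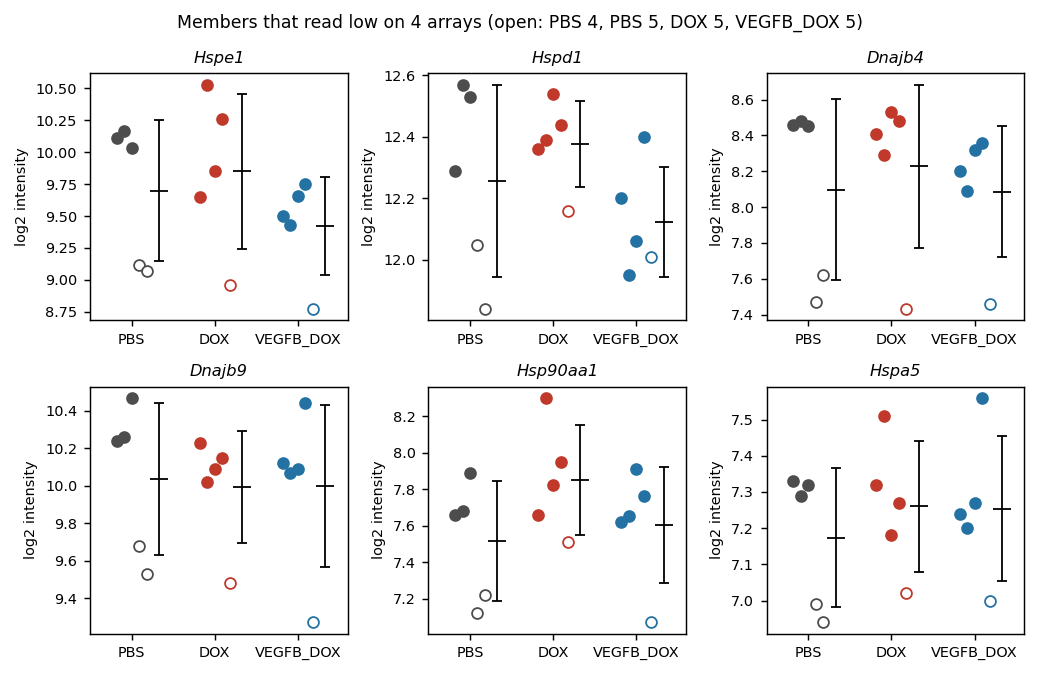
Log2 intensity by array of Hspe1, Hspd1, Dnajb4, Dnajb9, Hsp90aa1 and Hspa5, with group mean and SD. Open points are PBS 4, PBS 5, DOX 5 and VEGFB_DOX 5, which lie below every other array for 5 of the 6 genes, Hspd1 being the one that overlaps.

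With the 4 arrays as a block in the fit, a choice made after the data were seen, 9 members passed against DOX and 11 against PBS, where 16.6% and 17.2% of all genes did. Those added were Hspe1, Hspb3, Dnajb2 and Dnajc12 against DOX, and Hspe1, Hspa2, Dnaja2 and Dnajc25 against PBS. For Hspe1, in the fit without the block the difference stood at -0.43 ± 0.27 against DOX and -0.28 ± 0.27 against PBS (adjusted p = 0.401 and 0.612), and with the block at -0.43 ± 0.12 and -0.47 ± 0.13 (adjusted p = 0.0277 and 0.0164). With the 4 arrays left out it stood at -0.49 and -0.52 (adjusted p = 0.0506 and 0.0594). Against DOX with the block, Dnajc12 stood at -0.22 (adjusted p = 0.0253), Dnajb2 at -0.27 (adjusted p = 0.0464) and Hspb3 at -0.32 (adjusted p = 0.0468), each with the same difference as without it. In DOX against PBS the block gave 0 member calls, where 0.761% of all genes passed.

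The within-group SD of a member had a median of 0.155 on the log2 scale, beside 0.112 for all tested genes. Ranked among genes of like brightness, the median member stood at the 63.4th percentile, and 10 of 54 members (18.5%) lay in the upper 10.0% of spread. Hspe1 had an SD of 0.524, Dnajb4 of 0.446, Dnajb9 of 0.384, Hspb7 of 0.318, Hsp90aa1 of 0.317, Hspa1l of 0.311, Hspb1 of 0.284 and Hsph1 of 0.269. Hspa1l, a member of the HSP70 family, read 7.87 to 9.12 on DOX arrays.

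**Figure D5:**
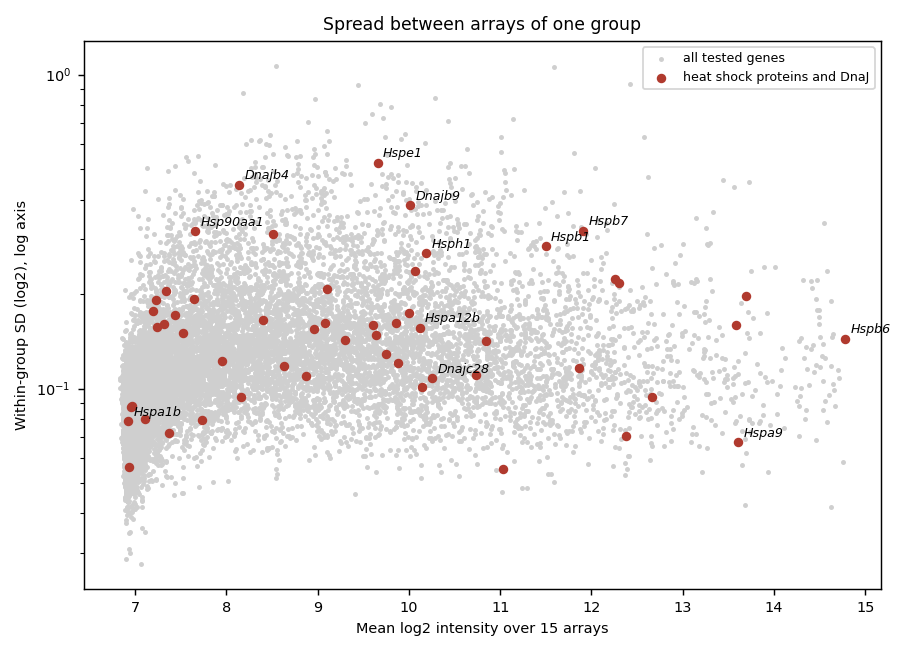
Within-group SD (log axis) against mean log2 intensity over 15 arrays for all 12750 tested genes, with the 54 members marked. Hspe1 at 0.524, Dnajb4 at 0.446 and Dnajb9 at 0.384 lie in the upper part of the cloud.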

How the data were processed

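Expression was measured in 15 heart samples, 3 groups of 5, with 1 array each. TRIsure and NucleoSpin RNA II columns were used for the RNA and an Ambion kit for biotin-labelled cRNA, per the labels' protocols. The array software is not given in the sources used here. The deposited table holds log2 intensities, as its range from 6.52 to 14.93 shows. The authors had quantile-normalized them: sorted values of any pair of arrays differ by at most 0.01, and all medians are 6.92. No background seems to have been subtracted. A deposited table of raw intensities has 15 columns whose names match no label and was not used here.

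The mode of all values (6.80, after smoothing) was taken as background, with an SD of 0.0722 from the values below it. A probe was tested when above 6.92, the 95% limit, on at least 5 of 15 arrays, which kept 24861 of 45281 probes. Of all probes, 34885 carry 1 symbol, 18 several and 10378 none. All 132 member probes matched a RefSeq gene by identifier, with 0 symbols differing. A gene is read at its brightest tested probe.

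A limma model (version 3.58.1, R 4.3.3) with group means covered all 15 arrays (variance trend, 12 residual degrees of freedom), with Benjamini-Hochberg adjustment over all tested probes. The procedure was tested on simulated data with known changes. Alternatives were the filter, the variance prior, the groups in the fit, array weights, a replicate block, background subtraction, the probe per gene and left-out arrays. Members named with values were those past the threshold, the 6 of smallest p in each comparison, a fixed set of best known members, probes that disagree, and the 5 brightest. The other members named (Hspa1l, Hspa2, Hspa4, Hspa4l, Dnaja2, Dnajb4, Dnajb6, Dnajc15, Dnajc19 and Dnajc25) were chosen after their values were seen. The members and lists were chosen with earlier results of these data known. Python 3.11.15 and matplotlib 3.10.9 drew the figures. The number of arrays limits the precision.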

Additional observations from a re-analysis of the deposited data

Results flagged for a closer look

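Of 87 sets of 5 arrays (29 named members in 3 groups), 2 held an array whose gap to its nearest neighbour took up most of the range of its group, and chance gives about 1 in 20. Dnajb9 read 9.48 on DOX 5, where the other DOX arrays read 10.02 to 10.23. DOX 5 is among the 4 arrays on which Dnajb9 was low in every group. Hspa12b read 10.79 on VEGFB_DOX 2, where the other VEGFB_DOX arrays read 10.33 to 10.46, all above every DOX and PBS array. Without VEGFB_DOX 2 the rise of Hspa12b was 0.43 against DOX and 0.48 against PBS, and both differences still passed with limma.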

How the results depend on the processing

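Over 26 alternative settings, 29 named members in 3 comparisons gave 2250 values. Of these, 2194 kept their side of the threshold, 35 lost a call and 21 gained one. In 0 of them did a difference that passed in either fit change its sign. Differences that passed in neither fit could change sign, as that of Hspe1 in DOX against PBS, from -0.05 to 0.37. In all, 15 of 87 differences changed their call in at least 1 setting. The calls of Hspa12b and Dnajc28 in both VEGFB_DOX comparisons, and of Hsph1 and Dnajc12 against PBS, held in all 26. The count of members in DOX against PBS was 0 and became 1, Hspb7, without DOX 2 and VEGFB_DOX 3, and ran from 0 to 1 with single arrays left out. In VEGFB_DOX against DOX the count of 5 became 3 without a filter on dim probes, 3 with only the 2 groups in the fit, 2 without DOX 2 and VEGFB_DOX 3, 8 with array weights and 9 with the split of the second component as a block, and ran from 2 to 5 with single arrays left out. In VEGFB_DOX against PBS the count of 7 became 11 with array weights and 11 with that block, and ran from 5 to 8. Without PBS 4, PBS 5, DOX 5 and VEGFB_DOX 5, the calls of Hspb2, Dnajb12 and Dnajb2 against PBS ended at -0.27, -0.19 and -0.37, and without DOX 2 and VEGFB_DOX 3 those of Hsph1, Dnajc16 and Dnajc30 against DOX ended at -0.44, -0.26 and -0.22. The causes were not tested. The replicate number of the labels as a block gave counts of 0, 6 and 8, with Dnajb2 then past the threshold against DOX (adjusted p = 0.0382). Deviations of same-numbered arrays correlated at -0.41 to 0.63 and of other pairs at -0.49 to 0.53. Of the same-numbered pairs, PBS 4 with VEGFB_DOX 4 was the lowest and DOX 5 with VEGFB_DOX 5 the highest. The ranges overlap, so they cannot decide whether the numbers pair the samples. The dim probes of Hspa1a, Hspa1b, Dnaja1, Hspa5 and Hspa12a leave little room to read a fall, and Hspb6 little room to read a rise.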
